A study of Homo sapiens with 9 samples.

Results

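The genes described here are 10 of the 20812 genes in a table of amplicon read rates from SKBR3 breast cancer cells: the ADP-ribosyltransferase family genes PARP1, PARP2, PARP4, PARP8, PARP9, PARP10, PARP12, PARP14 and ZC3HAV1, and DTX3L, the partner of PARP9. They were found by their gene symbols. They were picked with the higher values of several of them under the first PVRL4 siRNA already known, so the members' comparisons that hold those libraries are given as a description. No p-value is printed for a member there, and nothing is read from which members passed a threshold. SKBR3 is an established human line with an amplified ERBB2 gene. Each of 3 groups has 3 libraries, of cells given PVRL4 siRNA 1, PVRL4 siRNA 2 or a non-targeting control siRNA for 48 h, all at 10 nM and with the same lipid transfection reagent. The PVRL4 siRNAs came from Integrated DNA Technologies and the control was the ON-TARGETplus product of Horizon Discovery, so supplier and target cannot be told apart in a comparison with control. Whether replicates were separate cultures is not stated, and a p-value here speaks only for the scatter of these libraries, which can be technical.

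Enzymes of the PARP family take ADP-ribose from NAD and attach it to proteins or nucleic acids. PARP1 and PARP2 build chains of poly(ADP-ribose) at DNA breaks, which draw in repair proteins such as XRCC1. Most other active members add single ADP-ribose units, and a branch of the family (PARP9 with DTX3L, PARP10, PARP12, PARP14 and ZC3HAV1) is known for induction by interferon and for roles in defence against viruses. Interferon signalling reaches many of its target genes through 2 DNA elements near their starts, the interferon-stimulated response element (ISRE) and the gamma-activated site (GAS).

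Promoter sequence is described before the measured values, of which it uses none. RefSeq promoter windows of 300 bases (250 before and 50 after an annotated start, GRCh38.p14) were given for 8 of the 10 members, in 11 windows, and were searched on both strands for the ISRE core (GAAA, any 2 bases, GAAA) and for the GAS letters TTCNNNGAA. These motifs can overlap, but no match here did. The ISRE core stood in the windows of 4 members, PARP9, DTX3L, PARP12 and PARP14, and in 1255 of all 35116 windows (3.57%). The GAS letters stood in those of 3 members, PARP14, ZC3HAV1 and PARP2, and in 2689 of all windows (7.66%). No match was found in the windows of PARP1 and PARP8. Windows of PARP10 and PARP4 were not analysed here. A match is a description of the letters and not evidence of binding.

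PARP9 and DTX3L lie head to head on chromosome 3, at 122527924 to 122564784 on the minus strand and 122564338 to 122575203 on the plus strand in the RefSeq annotation, so their annotated starts share 1 stretch of sequence. The 30 bases around their ISRE core are the same genomic bases (chr3:122564322-122564351), printed 5′ to 3′ on each gene's own strand with the core in capitals. On the PARP9 strand, as for PARP12, it reads in reverse complement.

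PARP9: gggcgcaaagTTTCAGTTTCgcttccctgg
DTX3L: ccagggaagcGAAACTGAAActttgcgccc

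The core lay 41 to 32 bases before 1 of the 2 annotated PARP9 starts, and ran from 6 bases before the DTX3L start to base 4 of its transcript. PARP14 lies on the same chromosome, at 122680839 to 122730840 on the plus strand. Its 250 bases before the start (chr3:122680589-122680838) are shown because they hold both motifs within a short stretch, the GAS letters 40 to 32 and the ISRE core 29 to 20 bases before the start, in capitals.

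PARP14: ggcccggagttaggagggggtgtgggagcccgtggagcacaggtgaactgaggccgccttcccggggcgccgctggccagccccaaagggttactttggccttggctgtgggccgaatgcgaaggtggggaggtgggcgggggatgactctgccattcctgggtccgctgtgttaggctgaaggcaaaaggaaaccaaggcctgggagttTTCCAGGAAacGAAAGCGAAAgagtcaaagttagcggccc

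PARP12 and ZC3HAV1 both lie on the minus strand of chromosome 7 (140023749 to 140062951 and 139043515 to 139109720). They are shown for a contrast: PARP12 (chr7:140062952-140063201) holds the ISRE core in the last 10 bases before its start, and ZC3HAV1 (chr7:139109721-139109970) holds only the GAS letters, 104 to 96 bases before its start.

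PARP12: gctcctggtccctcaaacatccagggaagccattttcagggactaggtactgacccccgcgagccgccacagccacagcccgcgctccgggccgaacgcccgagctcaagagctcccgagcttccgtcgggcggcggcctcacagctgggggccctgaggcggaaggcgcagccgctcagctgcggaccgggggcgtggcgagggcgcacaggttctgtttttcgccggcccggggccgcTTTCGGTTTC
ZC3HAV1: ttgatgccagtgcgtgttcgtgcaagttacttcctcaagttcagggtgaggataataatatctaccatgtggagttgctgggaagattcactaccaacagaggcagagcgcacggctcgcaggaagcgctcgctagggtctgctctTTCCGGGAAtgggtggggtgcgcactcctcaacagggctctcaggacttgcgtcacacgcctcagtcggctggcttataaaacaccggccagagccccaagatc

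PARP1, a DNA repair member on the minus strand of chromosome 1 (226360691 to 226408093), is shown for comparison; its window (chr1:226408094-226408343) has neither motif and no capitals. Its 250 bases hold 70.4% G and C, as do those of PARP12, against 62.8% for PARP14 and 55.6% for ZC3HAV1.

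PARP1: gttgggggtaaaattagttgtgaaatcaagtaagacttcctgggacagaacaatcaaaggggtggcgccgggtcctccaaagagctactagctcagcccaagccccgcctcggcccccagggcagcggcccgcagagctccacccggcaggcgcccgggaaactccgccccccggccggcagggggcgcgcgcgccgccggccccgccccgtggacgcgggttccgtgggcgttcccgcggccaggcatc

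**Figure D1:**
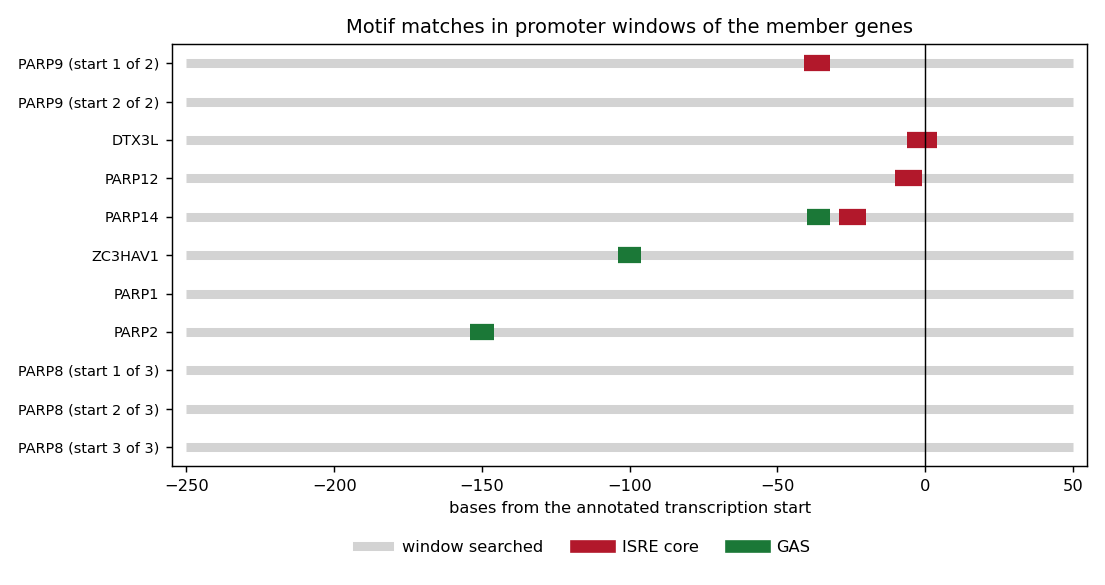
Position of ISRE core (red) and GAS (green) matches in the 11 RefSeq promoter windows of 8 member genes, in bases from the annotated transcription start (horizontal axis; 1 bar per annotated start). The ISRE core appears in PARP9, DTX3L, PARP12 and PARP14, the GAS letters in PARP14, ZC3HAV1 and PARP2.

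Each library held 10017130 to 10707777 reads, and values are RPM, a gene's reads relative to the total of its library. PVRL4, the targeted gene, which encodes the adhesion molecule nectin-4, stood at 5.99, 4.36 and 4.67 RPM in siRNA 1 libraries and 3.39, 2.91 and 2.58 RPM in siRNA 2 libraries, against 9.93, 7.86 and 11.6 RPM in control libraries. The means were 51.0% and 30.2% of control, and the log2 changes were -0.84 with siRNA 1 (limma adjusted p = 0.0601, or 0.0132 with the replicate number as a block) and -1.44 with siRNA 2 (limma adjusted p = 0.00224). The 5 luminal markers EPCAM, KRT8, KRT18, KRT19 and ERBB2 summed to 9669 to 10103 RPM with siRNA 1, 8306 to 8837 RPM with siRNA 2 and 9843 to 10598 RPM with control. Of other cell types, 7 leukocyte markers summed to at most 1.65 RPM, with PTPRC at 0 in all 9 libraries. The 5 fibroblast markers summed to 3.82 to 7.47 RPM and the 4 endothelial markers to 4.39 to 10.3 RPM, with PECAM1 at 0 in 8 libraries. Other markers of these lists had reads in all 9 libraries, among them CD14 of the leukocyte list (0.095 to 1.07 RPM). COL1A1 (3.53 to 6.35 RPM) made up most of the fibroblast sums and CDH5 (4.20 to 9.88 RPM) most of the endothelial sums.

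The siRNA 1 changes of the members are set out by role as a description. The 6 interferon-linked members were higher in every siRNA 1 library than in every control library, as were 6.40% of all genes tested. Their log2 changes were 0.89 to 3.46 with a median of 2.64, computed as differences of log2(RPM + 1). The DNA repair members PARP1 and PARP2 had log2 changes of -0.19 and 0.13, and PARP4 and PARP8 had 0.33 and 0.48. The median log2 change over all 11158 genes tested was 0.01. PARP2 and PARP4 were also wholly above control, and PARP1 was wholly below, as were 5.59% of genes. Since the members were picked with siRNA 1 values known, nothing is read from such counts or from the siRNA 1 contrast by role. Under siRNA 2 the medians were 0.08 for the interferon-linked, -0.08 for the DNA repair and -0.11 for the other 2 members, beside -0.02 for all genes. The interferon-linked median includes PARP9, PARP10 and PARP14, which had few reads under siRNA 2 and control. For such genes log2(RPM + 1) draws changes toward 0. The remaining interferon-linked members DTX3L, PARP12 and ZC3HAV1 had 0.32, -0.23 and -0.19. In these bulk samples, fewer cells expressing a gene and less RNA per cell cannot be told apart.

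PARP9 and DTX3L form a complex in which DTX3L is a ubiquitin ligase. PARP9 stood at 29.2, 3.29 and 8.59 RPM in siRNA 1 libraries, 0.10, 0.097 and 0.477 RPM in siRNA 2 libraries and 0.191, 0.095 and 0.099 RPM in control libraries. These were 302, 34 and 92 reads with siRNA 1, 1, 1 and 5 reads with siRNA 2, and 2, 1 and 1 reads with control. PARP9 was thus close to undetected outside the siRNA 1 group, and 3 reads, used as a floor, were worth 0.28 to 0.30 RPM. The ratio of summed reads, 428 with siRNA 1 against 4 with control and adjusted for library totals, was 106, with an exact 95% interval of 41.2 to 392 that covers counting error only. DTX3L stood at 50.8, 11.2 and 26.8 RPM in siRNA 1 libraries, 2.80, 3.88 and 4.29 RPM in siRNA 2 libraries and 2.00, 4.17 and 2.27 RPM in control libraries. Unlike PARP9 it was measurable in all 9 libraries, and its siRNA 1 mean of 29.6 ± 19.9 RPM was 10.5 times the control mean of 2.81 ± 1.18 RPM (SD, n = 3 each).

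PARP14 carries macrodomains beside its transferase domain and is known as a cofactor of STAT6. It stood at 39.7, 4.84 and 12.8 RPM in siRNA 1 libraries, 0.40, 0.388 and 0.763 RPM in siRNA 2 libraries and 0.382, 0.189 and 0.493 RPM in control libraries. The siRNA 1 group lay wholly above the others, with 598 reads in all against 11 reads in control, a ratio of 54.0 (counting interval 29.96 to 109). PARP10, a mono-ADP-ribosyltransferase on chromosome 8, stood at 14.3, 2.42 and 8.31 RPM in siRNA 1 libraries, 0.10, 0.291 and 1.24 RPM in siRNA 2 libraries and 0.191, 0.853 and 0.296 RPM in control libraries. The ratio of summed reads, 262 against 14, was 18.6 (counting interval 10.9 to 34.5), and the siRNA 2 and control libraries overlapped.

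PARP12, a CCCH zinc finger member known for blocking virus replication, stood at 70.7, 13.8 and 36.4 RPM in siRNA 1 libraries, 6.09, 8.24 and 7.63 RPM in siRNA 2 libraries and 10.0, 9.19 and 7.10 RPM in control libraries. Its siRNA 1 mean of 40.3 ± 28.6 RPM was 4.6 times the control mean of 8.77 ± 1.51 RPM. ZC3HAV1 encodes the zinc finger antiviral protein, which binds CpG-rich viral RNA and whose PARP domain is inactive. It stood at 360.3, 140.1 and 199.8 RPM in siRNA 1 libraries, 109.9, 109.5 and 86.5 RPM in siRNA 2 libraries and 115, 106 and 127 RPM in control libraries, and the siRNA 1 mean was 2.01 times that of control. Its ratio was the smallest of the 6, and replicate 2 of siRNA 1 (140.1 RPM) stood close above the highest control library (127.1 RPM). The isoforms of ZC3HAV1 with and without the PARP domain were not told apart, since 1 amplicon measures the gene.

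**Figure D2:**
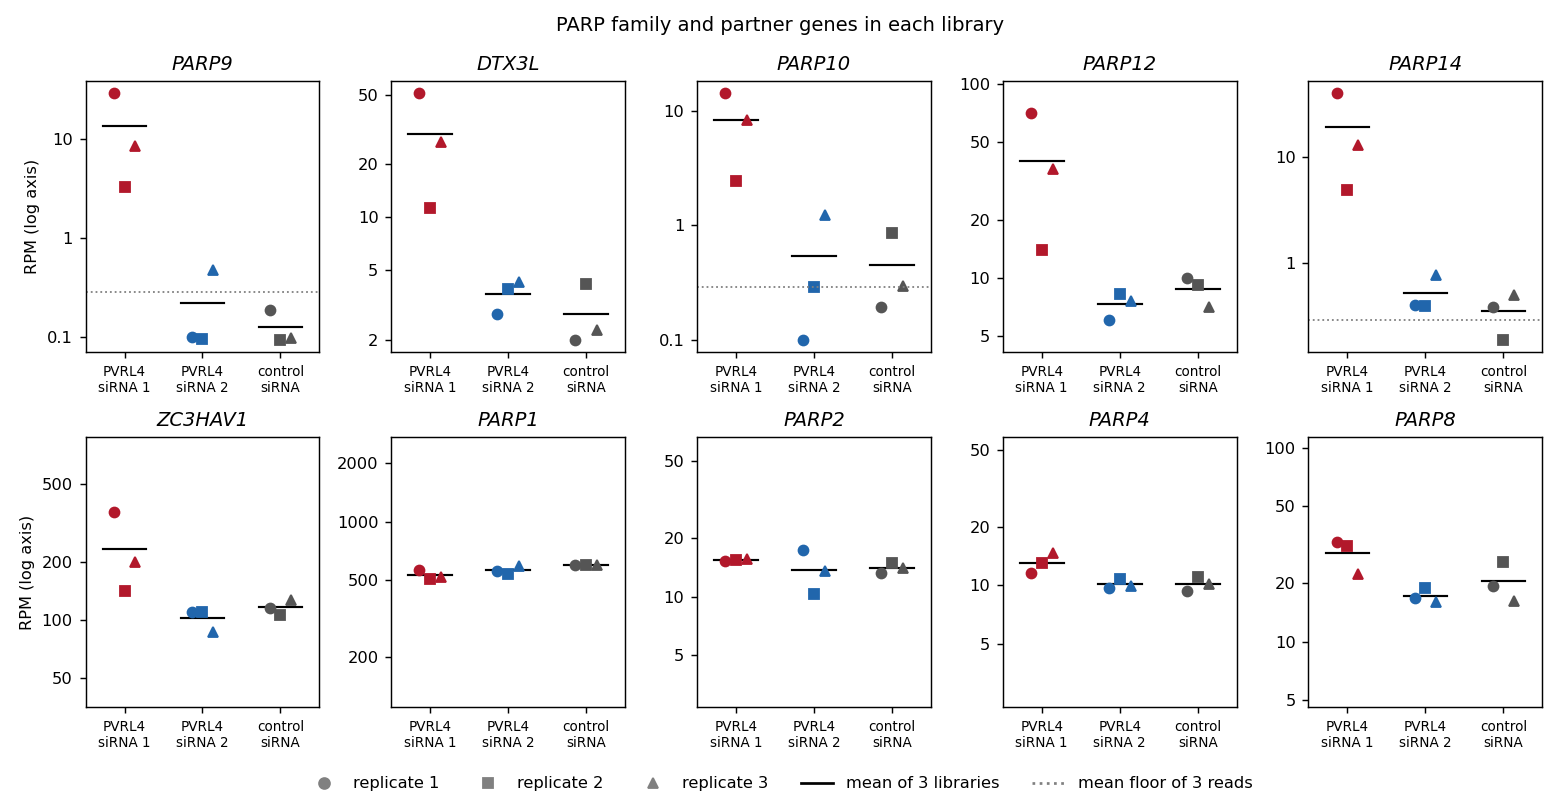
RPM of the 10 genes in each of 9 libraries (log axis, its range differing by panel), with PVRL4 siRNA 1, PVRL4 siRNA 2 and control siRNA from left to right; symbols give the replicate number, black lines the mean of 3 libraries and the dotted line the mean floor of 3 reads. The 6 interferon-linked genes are highest in siRNA 1 replicate 1 (PARP14 at 39.7 RPM) and lowest of that group in replicate 2 (4.84 RPM), while PARP1 stays between 504 and 601 RPM.

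The interferon-linked members varied widely within the siRNA 1 group and in 1 order. Replicate 1 was highest, replicate 3 next and replicate 2 lowest for 6 of 6, with the highest library 2.57 to 8.86 times the lowest. The order held for 1 of the other 4 members, for 14 of 14 interferon marker genes and for 1875 of the 11158 genes tested (16.8%). The 14 interferon markers summed to 6010, 844 and 2648 RPM in siRNA 1 replicates 1, 2 and 3, to 146, 144 and 217 RPM in the siRNA 2 replicates and to 138, 142 and 140 RPM in the control replicates. The DNA repair members spread by 1.02 to 1.11 times over the same siRNA 1 libraries, and PARP4 and PARP8 by 1.26 to 1.47 times. The interferon markers move with these members, and their part in the result was not tested. In siRNA 2 replicate 3, the library of that group with the highest marker sum, PARP9, PARP10 and PARP14 had 5, 13 and 8 reads and DTX3L 4.29 RPM, the highest of their group. In the same library ZC3HAV1 (86.5 RPM) was the lowest of its group and PARP12 (7.63 RPM) was between the others. The 6 members summed to 100.9 RPM there, against 119.4 and 122.4 RPM in siRNA 2 replicates 1 and 2. Most of each sum is ZC3HAV1, so the sums do not describe the other members.

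Against the control library of the same replicate number, the log2 differences of siRNA 1 were 4.88, 2.30 and 3.21 for PARP14, 2.70, 0.54 and 2.21 for PARP12, and 1.64, 0.39 and 0.65 for ZC3HAV1. The differences were 0.21, 0.05 and 0.14 for PARP2, 0.28, 0.21 and 0.49 for PARP4, and 0.73, 0.26 and 0.43 for PARP8. For PARP1 they were -0.10, -0.25 and -0.21, which is below control each time. The corresponding differences of siRNA 2 for PARP1 were -0.11, -0.16 and -0.03.

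**Figure D3:**
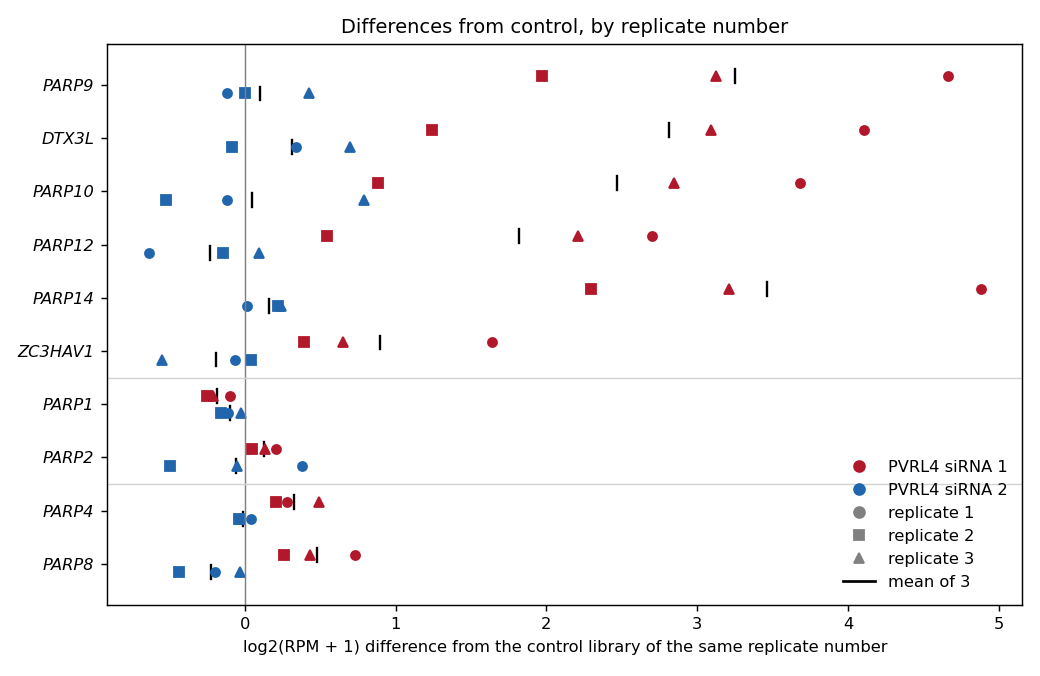
Difference in log2(RPM + 1) of each PVRL4 siRNA library from the control library of the same replicate number (horizontal axis), for the interferon-linked (top), DNA repair (middle) and other members (bottom); symbols give the replicate and black ticks the mean of 3. With siRNA 1 PARP14 has differences of 4.88, 2.30 and 3.21, and with siRNA 2 the differences of all 10 genes lie between -0.64 and 0.79.

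PARP1, the main sensor of DNA strand breaks, stood at 562, 504 and 520 RPM in siRNA 1 libraries, 557, 538 and 589.8 RPM in siRNA 2 libraries and 601, 601 and 601 RPM in control libraries. All 6 PVRL4 siRNA libraries lay below the control libraries, by means of 529 ± 29.9 RPM with siRNA 1 and 562 ± 26.1 RPM with siRNA 2 against 601 ± 0.0625 RPM with control (SD, n = 3 each). The control SD was smaller than the counting error of 1 library, 7.61 RPM (79.0 of 6246 reads). PARP2, its relative in repair, stood at 15.4, 15.4 and 15.6 RPM in siRNA 1 libraries, 17.5, 10.3 and 13.5 RPM in siRNA 2 libraries and 13.2, 14.9 and 14.1 RPM in control libraries. The siRNA 1 values lay close together and just above the highest control library.

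PARP4, the family member of vault ribonucleoprotein particles, stood at 11.6, 12.98 and 14.7 RPM in siRNA 1 libraries, 9.68, 10.8 and 9.92 RPM in siRNA 2 libraries and 9.35, 11.1 and 10.2 RPM in control libraries. PARP8, a mono-ADP-ribosyltransferase, stood at 32.7, 31.1 and 22.3 RPM in siRNA 1 libraries, 16.7, 18.8 and 15.9 RPM in siRNA 2 libraries and 19.3, 25.8 and 16.3 RPM in control libraries. PARP4 did not overlap between siRNA 1 and control and PARP8 did, with mean ratios of 1.28 and 1.41.

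In limma's test over all 11158 genes, 5 of the 10 members passed an adjusted p of 0.05 as higher with siRNA 1 than with control (all the interferon-linked members but ZC3HAV1, which passed in addition with the replicate number as a block) and 0 as lower. The background was 0.636% of genes higher and 0.215% lower, and since the members were picked from that comparison nothing is read from the count. It was 3 without siRNA 1 replicate 3, control replicate 1 or control replicate 3, where 43, 40 and 41 of all genes were higher. By ranges, 8 members were higher in all siRNA 1 libraries than in all control libraries (6.40% of genes) and 1, PARP1, was lower (5.59% of genes). All 10 passed the filter of a mean of 1 RPM, but PARP9, PARP10 and PARP14 did so only through the siRNA 1 libraries, averaging 0.177, 0.495 and 0.436 RPM over the other 6. Set side by side, siRNA 2 libraries had log2 changes from siRNA 1 libraries of -3.30 for PARP14, -3.15 for PARP9, -2.50 for DTX3L, -2.42 for PARP10, -2.05 for PARP12 and -1.08 for ZC3HAV1. For PARP1 and PARP2 these were 0.09 and -0.19. In that comparison limma called 6 members as lower and 0 as higher, where 2.46% and 0.592% of genes were (274 and 66 of 11158). With PARP8 added, 7 members were called as lower in edgeR, in DESeq2 and with the replicate block. Of the 11158 genes, 257, 341 and 727 were lower there. By ranges, 8 were lower and 0 higher in all siRNA 2 libraries than in all siRNA 1 libraries, as were 12.6% and 7.04% of genes. Nothing is read from these counts either, since the choice of members fixed their direction.

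The comparison of siRNA 2 with control holds no siRNA 1 library and was tested. The spread of the limma fit is shared by all 3 groups, and the 1 RPM filter averages over all 9 libraries, so both also draw on the siRNA 1 libraries. The fit on the 6 siRNA 2 and control libraries alone is therefore given beside it. In that fit 7 of the 10 members passed the filter (PARP9, PARP10 and PARP14 did not) and 0 of the 7 were called, where 0.0360% of 11097 genes were called as higher and 0.442% as lower. In the 9-library fit 0 of the 10 were called, where 0.0358% of genes were called as higher and 0.645% as lower. No member had an unadjusted p below 0.05 in either fit, and 0 passed with edgeR, with the replicate number as a block or with DESeq2, which gave PARP10 no adjusted p. Over all genes the higher and lower calls were 5 and 53 with edgeR, 51 and 329 with the block, and 23 and 136 with DESeq2.

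For DTX3L the log2 change was 0.32, with a 95% interval of -0.51 to 1.14 in the 9-library fit (limma adjusted p = 0.878) and of -0.20 to 0.84 in the 6-library fit (adjusted p = 0.815). PARP12 had a change of -0.23 (-1.06 to 0.60, adjusted p = 0.924, and -0.63 to 0.18, adjusted p = 0.835) and ZC3HAV1 of -0.19 (-0.70 to 0.32, adjusted p = 0.883, and -0.46 to 0.08, adjusted p = 0.762), each in the same order. The intervals of these 3 interferon-linked members were narrower without the siRNA 1 libraries. PARP14 had 16 reads with siRNA 2 and 11 with control, PARP10 17 and 14, and PARP9 7 and 4, and no fold of summed reads is given for them. The log2 differences of siRNA 2 from control printed or drawn elsewhere for PARP9, PARP10 and PARP14 rest on these few reads.

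The DNA repair and other members had similar intervals in both fits. In the 9-library fit PARP1 had a log2 change of -0.10 (95% interval -0.28 to 0.09, limma adjusted p = 0.808), PARP2 -0.06 (-0.42 to 0.31, adjusted p = 0.966), PARP4 -0.01 (-0.33 to 0.31, adjusted p = 0.990) and PARP8 -0.22 (-0.61 to 0.16, adjusted p = 0.788). In the 6-library fit the intervals were -0.31 to 0.12 for PARP1, -0.45 to 0.34 for PARP2, -0.36 to 0.34 for PARP4 and -0.59 to 0.15 for PARP8. A p above the threshold does not show that values were equal. PARP1 was the 1 member of 10 whose siRNA 2 and control libraries did not overlap, lower as in 8.95% of genes, while 4.99% were higher. PARP2 and PARP4 have no settled sign: PARP2 was 0.13 without siRNA 2 replicate 2, and PARP4 was 0.048 without control replicate 2 and 0.020 with median-of-ratios scaling.

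The genes outside the members with the closest profiles over the 9 libraries were taken among 7927 genes that averaged 10 RPM or more, by the root mean square difference of centred log2(RPM + 1) values. Those of PARP9 were DDX58 (0.26), IFIT5 (0.32) and IRF7 (0.36), and those of PARP14 were DDX58 (0.25), OAS3 (0.26) and IRF9 (0.33). The 2 DNA repair members had other neighbours, with CTNNA1 (0.04), NDRG3 (0.05) and SUMO2 (0.05) nearest to PARP1 and TTC7A (0.06), MRPL51 (0.07) and SYNE2 (0.09) nearest to PARP2. A smaller difference is easier to reach for genes that vary little, so the values of the repair and interferon-linked members are not comparable. The profiles include the siRNA 1 libraries, whose higher values were known when the members were picked. The neighbours are therefore a description, and nothing is read from their contrast by role.

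Other genes of ADP-ribosylation were taken from 7 lists by role, with 43 genes in the table and 36 tested. The lists were written with earlier results of these data known, which no p-value of a partner gene takes into account. PARP15, ADPRH and DTX1 were listed at 0 in all 9 libraries, and MACROD2, POLB, APLF and NMNAT2 averaged under 1 RPM. With siRNA 1, 1 of the 36 passed as higher, TRIM25, and 0 as lower, where 0.636% and 0.215% of all genes passed. With siRNA 2, 0 passed as higher and 1 as lower, TDP1, where 0.0358% and 0.645% of all genes passed. Per list, median log2 changes ranged from -0.09 (single-strand break repair) to 0.31 (vault partners) with siRNA 1 and from -0.38 (Deltex family) to 0.04 (vault partners) with siRNA 2.

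TRIM25 is a ubiquitin ligase that works with the ZC3HAV1 protein against viral RNA. It stood at 80.1, 47.9 and 51.2 RPM in siRNA 1 libraries, 35.8, 30.1 and 23.9 RPM in siRNA 2 libraries and 25.7, 34.7 and 27.1 RPM in control libraries. All siRNA 1 libraries were higher, with a log2 change from control of 0.98 (SE 0.19, limma adjusted p = 0.0280). This p-value does not allow for the earlier results known when the lists were written. The call was lost without siRNA 1 replicate 1 (adjusted p = 0.113) or replicate 3 (0.05005), and without control replicate 1 (0.170) or control replicate 3 (0.135). Its siRNA 1 libraries stood in the order of the interferon markers, whose part in the result was not tested. The siRNA 2 libraries differed from the siRNA 1 libraries by -0.95 on the log2 scale (adjusted p = 0.0165). The other ZC3HAV1 cofactors did not pass, DHX30, an RNA helicase, having log2 changes of -0.07 with siRNA 1 and 0.11 with siRNA 2 (adjusted p = 0.9997 and 0.940).

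TDP1 removes topoisomerase 1 from DNA ends in the repair of single-strand breaks, alongside PARP1. It stood at 37.8, 46.2 and 44.5 RPM in siRNA 1 libraries, 19.8, 17.2 and 22.5 RPM in siRNA 2 libraries and 36.1, 36.4 and 38.3 RPM in control libraries. All 3 siRNA 2 libraries lay below the other 6, and TDP1 fell by 0.87 on the log2 scale against control (SE 0.13, limma adjusted p = 0.00640). Without any 1 library the adjusted p was 0.00535 to 0.0394. With siRNA 1 the log2 change was 0.20 (adjusted p = 0.9997), and siRNA 2 differed from siRNA 1 by -1.07 (adjusted p = 0.000476). The other 7 single-strand break repair genes tested did not pass with either siRNA.

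Of the other PARP family genes 0 of 7 passed against control in limma, edgeR or DESeq2, and 1 with siRNA 1 and 3 with siRNA 2 had an unadjusted p under 0.05, all lower, as had 2.78% and 6.93% of all genes. PARP11, a mono-ADP-ribosyltransferase, stood at 4.35, 5.13 and 7.004 RPM in siRNA 1 libraries, 4.19, 6.98 and 7.06 RPM in siRNA 2 libraries and 8.49, 9.47 and 10.2 RPM in control libraries. It was below control in all 6 PVRL4 siRNA libraries, with log2 changes of -0.69 (limma adjusted p = 0.265, or 0.0307 with the replicate number as a block) and -0.58 (adjusted p = 0.351). Of all genes, 5.59% lay wholly below control with siRNA 1 and 8.95% with siRNA 2. Between the siRNAs 1 of the 7, PARP16, passed as lower with siRNA 2 than with siRNA 1, as did 2.46% of all genes. Its log2 change there was -0.88 (limma adjusted p = 0.0362).

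Among the enzymes that remove ADP-ribose, 0 of 6 passed against control in limma or edgeR, and 1 with siRNA 1, ADPRHL2, had an unadjusted p under 0.05 (as had 3.26% of all genes, in the higher direction) and passed in DESeq2 (adjusted p = 0.0322). ADPRHL2, which cleaves ADP-ribose from serine, stood at 52.3, 30.7 and 38.8 RPM in siRNA 1 libraries, 22.6, 25.3 and 20.2 RPM in siRNA 2 libraries and 26.2, 24.3 and 26.2 RPM in control libraries. Its siRNA 1 libraries lay above control by 0.61 on the log2 scale (limma adjusted p = 0.167, or 0.0324 with the replicate block), and siRNA 2 differed from siRNA 1 by -0.78 (adjusted p = 0.0213). NUDT16, a hydrolase that trims ADP-ribose, had a change of -0.35 with siRNA 2 (adjusted p = 0.729).

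The Deltex relatives of DTX3L, the vault partners of PARP4 and the NAD supply genes had 0 of 3, 0 of 2 and 0 of 6 past the threshold against control with either siRNA, in limma, edgeR or DESeq2. At an unadjusted p under 0.05 there were 1 Deltex gene lower with siRNA 2 and 1 NAD supply gene higher with siRNA 1, beside 6.93% and 3.26% of all genes. DTX4 had a log2 change of -0.52 with siRNA 2 (limma adjusted p = 0.388, or 0.0320 with the replicate block) and DTX2 of 0.29 with siRNA 1 (adjusted p = 0.956). TEP1, a vault protein, had 0.34 with siRNA 1 and 0.10 with siRNA 2 (adjusted p = 0.887 and 0.924). NMRK1, a kinase that feeds nicotinamide riboside into NAD, had 0.55 with siRNA 1 (adjusted p = 0.608). NMNAT3, a late enzyme of NAD synthesis, had -0.57 with siRNA 2 (adjusted p = 0.533), or -1.34 in edgeR. NMNAT3 had only 4 to 5 reads in each siRNA 2 library and averaged 0.824 RPM over the siRNA 2 and control libraries. It passed the filter of 1 RPM only through the siRNA 1 libraries.

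**Figure D4:**
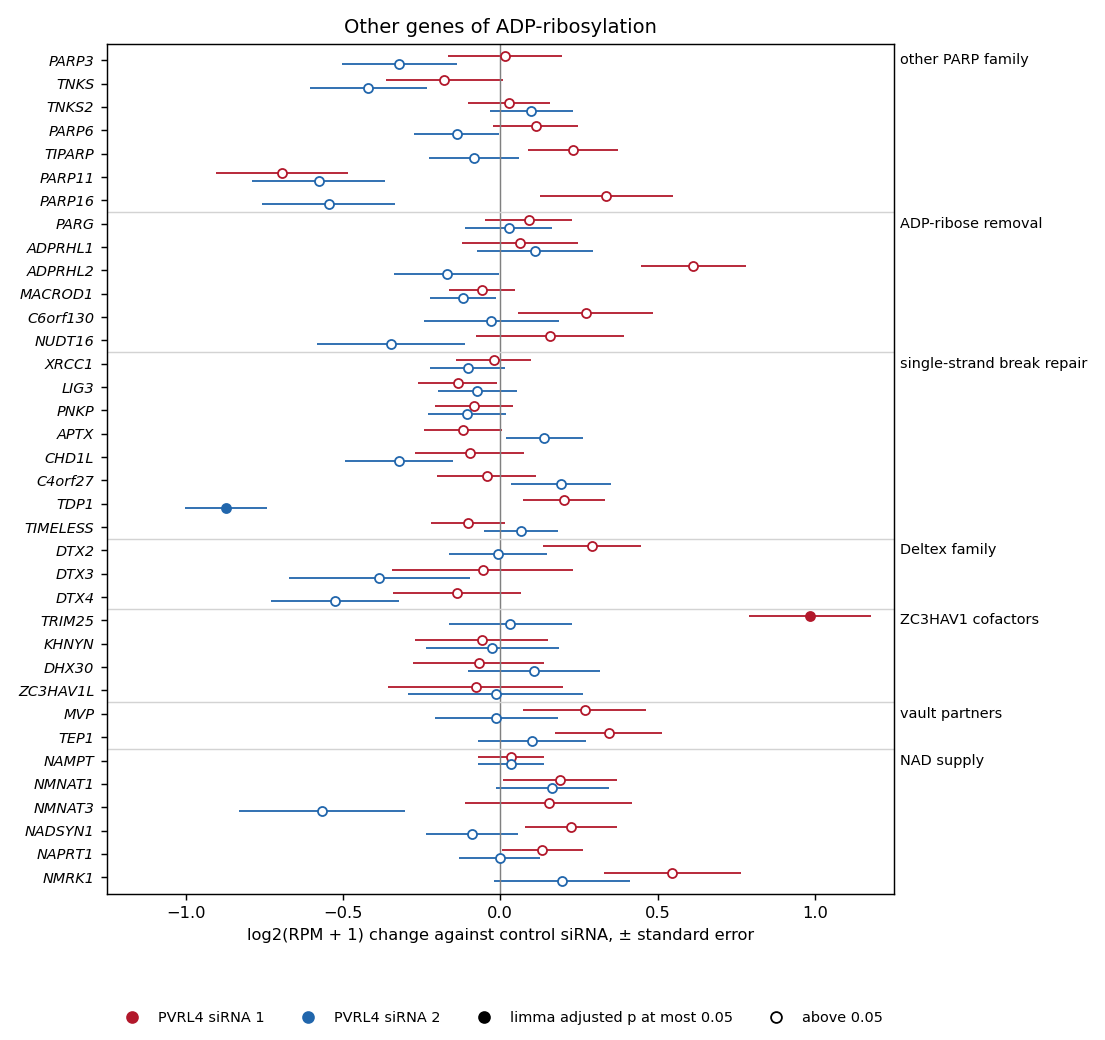
Change in log2(RPM + 1) against control siRNA with its standard error (horizontal axis) for the 36 tested genes of 7 lists, with PVRL4 siRNA 1 in red above PVRL4 siRNA 2 in blue; filled points passed limma's adjusted p of 0.05. The filled points are TRIM25 with siRNA 1 (0.98) and TDP1 with siRNA 2 (-0.87).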

How the data were processed

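RNA of 9 SKBR3 libraries was measured, 3 per group, as the sample titles name them. The authors used an Ion AmpliSeq transcriptome kit on 100 ng of RNA, per the labels' protocols; it reads 1 amplicon per gene. The amplicon limits what is told apart (paralogs or isoforms that share it), and levels of different genes are not compared here. The authors deposited RPM values. Whole reads came back from the RPM steps for 100% of values (tolerance 0.1 read), giving 10017130 to 10707777 reads. 1 read was worth 0.0934 to 0.0998 RPM. Reads have no molecular identifiers, so intervals and floors of 3 reads cover counting error only. The submitters' processing notes name hg19; aligner and counter are not given in the sources used here. Gene positions and promoter sequence are RefSeq's, GRCh38.p14, and the positions are not on the build of the deposited values.

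Tests used limma 3.58.1 (R 4.3.3) with a trended prior on log2(RPM + 1), for the 11158 genes that averaged 1 RPM or more, the 3 groups sharing 1 spread, two-sided, with Benjamini-Hochberg adjustment over all genes and a threshold of 0.05. An adjusted p is limma's unless another tool is named. This scale understates changes of genes near 1 RPM. Alternatives were pseudocounts of 0.1 and 5 RPM, no filter, a filter of 5 RPM, TMM and median-of-ratios scaling, a replicate block, fits of the 6 libraries compared, each library left out, and edgeR 4.0.16 and DESeq2 1.42.0 on the recovered reads. The script was tested on simulated counts. The members and the lists of partner and marker genes were chosen with earlier results of these data known. Named partners are, per list and comparison, up to 3 that passed, or else the 1 with the largest change. The closest profiles of PARP12 are not reported here.

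Replicate numbers, taken from the titles, pair libraries across groups: their deviations from group means correlated at 0.252 to 0.417 in the 9 library pairs that share a number, against -0.34 to -0.0275 in the other 18. Values with the number as a block stand beside results whose call they change.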

Additional observations from a re-analysis of the deposited data

How the results depend on the processing

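The member counts of the siRNA 2 against control comparison were 0 in both directions under every alternative run. With siRNA 1 the members higher than control numbered 5, where 71 of all 11158 genes tested were. With no filter they numbered 0, where 1 of 20812 genes was. With a filter of 5 RPM they numbered 2, where 53 of 9175 genes were. That filter took PARP9 and PARP10 out of the test, while PARP12 stayed in it and lost its call. With no filter but genes without a read dropped, a setting chosen after seeing the data, they numbered 3, where 42 of 16323 genes were. Leaving out 1 library gave 3 to 6, where 40 to 119 genes were. With no filter, 4489 genes without a read enter the fit. Members lower with siRNA 2 than with siRNA 1 numbered 6, where 274 of all genes were. They numbered 0 with no filter, where 8 genes were, and 5 in the fit of the 6 libraries, where 184 were. With a filter of 5 RPM and with genes without a read dropped they numbered 4, where 246 and 164 were. With PARP8 added they numbered 7 in edgeR, in DESeq2 and with the replicate block, where 257, 341 and 727 genes were. They also numbered 7, again with PARP8, with TMM or median-of-ratios scaling and a pseudocount of 0.1 RPM, where 260, 249 and 288 were. Leaving out 1 library gave 5 to 7, where 129 to 255 genes were. Partner genes lower with siRNA 2 numbered 1, against 0 with no filter and 2 with the replicate block in limma and in edgeR. Partner genes higher with siRNA 1 numbered 1, against 0 with no filter and with genes without a read dropped, and 2 with DESeq2 and with the replicate block in limma and in edgeR, and 0 to 2 leaving out 1 library; those lower numbered 0, against 1 with the block in limma and in edgeR. With no filter 11 of all 20812 genes were lower with siRNA 2, and in DESeq2 108 genes were higher with siRNA 1. Over all genes the block moved limma's calls with siRNA 1 to 130 higher and 76 lower, against 71 and 24. With siRNA 2 it moved them to 51 higher and 329 lower, against 4 and 72. In edgeR the block gave 137 and 82 with siRNA 1 and 66 and 254 with siRNA 2. The calls it changed are given in the report, with PARP8 between the siRNAs among them. Apart from the settings whose construction is stated, the cause was not tested.

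The size of the siRNA 1 log2 change depends on the pseudocount for genes near 0 in control. PARP9 had 5.41 at 0.1 RPM and 1.61 at 5 RPM, against 3.25, and 6.59 in edgeR. PARP14 had 4.97 and 1.89, against 3.46, and 5.69 in edgeR. Some small changes with siRNA 2 turned sign. PARP10 was 0.05 and became -0.023 at a pseudocount of 0.1 RPM. PARP4 was -0.01 and became 0.012 with TMM scaling, 0.020 with median-of-ratios scaling, 0.018 in edgeR with and without the block and 0.021 in DESeq2. Leaving out 1 library gave -0.038 to 0.18 for PARP9 (below 0 without siRNA 2 replicate 3), -0.25 to 0.26 for PARP10 (below 0 without siRNA 2 replicate 3, control replicate 1 or control replicate 3), -0.23 to 0.13 for PARP2 (above 0 without siRNA 2 replicate 2), -0.063 to 0.048 for PARP4 (above 0 without siRNA 2 replicate 1 or 3 or control replicate 2), -0.028 to 0.22 for DHX30 (below 0 without control replicate 2) and -0.0064 to 0.24 for TEP1 (below 0 without siRNA 2 replicate 3). PARP9, PARP10 and PARP14 had at most 13 reads a library outside siRNA 1, which limits their comparison between siRNA 2 and control.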
